A study of Mus musculus with 4 samples.

Results

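The calcium store and channel genes of the mouse oocyte were followed in RNA-seq libraries of control and γ-irradiated oocytes. The group holds 10 of the 17374 genes in the deposited table, chosen by name for their role, with earlier results of these data known. It comprises the IP3 receptors Itpr1, Itpr2 and Itpr3, the pumps Atp2a2 and Atp2b1, the channels Trpm7, Cacna1h and Orai1, the store sensor Stim1 and the kinase Camk2g. All 10 were listed and all 10 passed the filter on low counts, as did 12569 genes in all.

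The oocyte keeps its calcium in the endoplasmic reticulum, from which IP3 receptors release it when the sperm triggers IP3 production at fertilization. The released calcium is returned to the store by the SERCA pump Atp2a2 or sent out of the cell by the plasma membrane pump Atp2b1, and it is replaced by influx through channels such as TRPM7 and the T-type channel CaV3.2, encoded by Cacna1h. STIM1 senses an emptied store and opens the ORAI1 channel, a route known as store-operated entry. The resulting oscillations are read by CaM kinase II, of which the γ form encoded by Camk2g is the one that drives egg activation. Germinal vesicle oocytes, the cells sequenced here, have not yet resumed meiosis and are still building up this machinery.

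Both groups consisted of oocytes from F1 females of C57/Bl6 and DBA2J mice at postnatal day 16, when most germinal vesicles are in the transcriptionally active, non-surrounded nucleolus state. Every oocyte was freed of cumulus cells, held in medium with milrinone, an inhibitor of meiotic resumption, and treated with Tyrode's solution before lysis. The 2 irradiated libraries came from oocytes given 5 Gy in M2 medium and collected 24 h later, and the 2 control libraries from oocytes that were not irradiated. Each library is a pool of oocytes, 59 per condition. The time in culture of the controls is not given and the series text describes the untreated cells as sequenced directly, so irradiation and the handling that went with it cannot be told apart.

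The libraries held 33349466 to 37232818 estimated counts. Oocyte markers were all over 3 counts in every library (14 of 14) and summed to 30710 to 33492 TPM, while 10 of 16 granulosa and cumulus markers were listed, with sums of 17.6, 20.2, 17.6 and 23.9 TPM in control 1, control 2, irradiated 1 and irradiated 2. Of these granulosa and cumulus markers, 5 were over 3 counts in every library. The highest were Cyp19a1 at 8.79 to 10.23 TPM, Nr5a2 at 3.53 to 7.43 and Fshr at 1.66 to 2.89. Amh, Amhr2, Foxl2, Fst, Ptx3 and Wt1 were not listed. Theca, stroma and blood markers (7 of 15 listed, 5 over 3 counts in every library) summed to 6.95 to 12.0 TPM. Irradiated library 2 stood apart. It carried 38.2% of all genes at their highest normalized level, against 19.4 to 22.8% in each other library. Its oocyte markers moved in both directions. The zona gene Zp2 stood at 1937 TPM against 4115 to 4452 in the other libraries, and the zona gene Zp3 at 15620 against 10914 to 11773. Between the 2 libraries of a condition, chi-square per degree of freedom of the counts was 150 for the irradiated pair and 9.17 for the control pair, where counting error alone gives about 1. Gene totals that move by over 1.5 times when a library is left out are therefore also given without it.

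Per unit of transcript length, the store-operated channel Orai1 was the most abundant member and Itpr3 the least. Summed TPM averaged 37.4 ± 14.3 (SD over the 4 libraries) for Orai1, 18.3 for Camk2g, 16.9 for Atp2a2, 13.7 for Atp2b1, 7.53 for Itpr2, 3.47 for Trpm7, 2.39 for Itpr1, 1.17 for Stim1, 0.53 for Cacna1h and 0.113 for Itpr3. The ranges of neighbours in this order overlapped for only 2 pairs, Camk2g with Atp2a2 and Trpm7 with Itpr1. The order was the same in each of the 4 libraries, and the widest step was the last, at 4.69-fold between Cacna1h and Itpr3. Orai1 stood above 87.2% and Itpr3 above 24.6% of the listed genes. When predicted RefSeq models (XM rows) were left out, Orai1 came to 15.7 to 37.4 TPM, a range that overlapped that of Atp2a2 at 15.5 to 18.6. On these rows Camk2g came to 6.46 to 7.95 TPM, below Atp2b1 at 12.7 to 14.5, and neither Itpr1 nor Itpr2 kept any row.

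**Figure D1:**
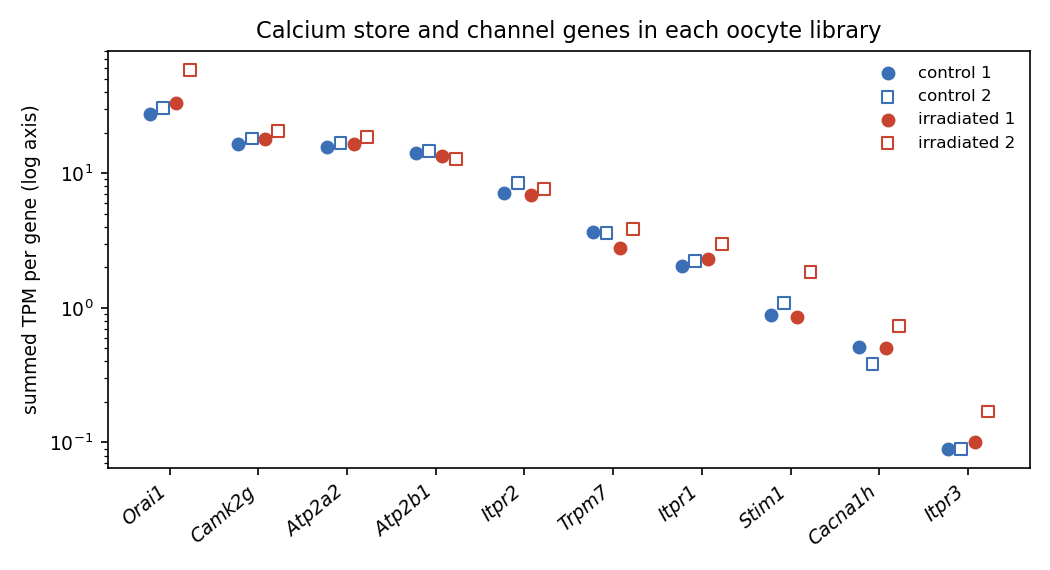
Summed TPM of each of the 10 genes (log axis) in control libraries 1 and 2 (blue) and irradiated libraries 1 and 2 (red), 1 point a library. Orai1 lies at the top, at 27.6 to 58.6 TPM, and Itpr3 at the bottom, at 0.09 to 0.17 TPM. On this scale, without TMM scaling, irradiated library 2 is the highest point for 8 of the 10 genes, all but Itpr2 and Atp2b1. In CPM after TMM scaling it was the highest for 4 of the 10, beside 38.2% of all genes tested.

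Most members made up nearly all of their own small family. Camk2g supplied 99.3 to 99.6% of the TPM of the CaM kinase II genes, Atp2a2 at least 99.9% of the SERCA genes, Orai1 97.7 to 98.6% of the ORAI genes and Atp2b1 92.9 to 95.3% of the plasma membrane pumps. Trpm7 supplied 88.8 to 93.6% of the pair with Trpm6, and Cacna1h 80.9 to 86.9% of the T-type channels. The IP3 receptors were shared among their genes, and Stim1 held the smaller part of the STIM pair. Its paralog Stim2, named here after its values were seen, stood at 5.85 to 6.57 TPM in the 4 libraries and left Stim1 with 12.6 to 22.3% of the STIM total.

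Among the IP3 receptors, which form the store's release channel, Itpr2 and not Itpr1 held most of the transcript. Itpr2 (6:146108299-146502258, GRCm38.p6) stood at 7.16 and 8.46 TPM in the controls and 6.87 and 7.63 after irradiation. Itpr1 (6:108213083-108551116), whose protein is the receptor usually assigned to the fertilization response, stood at 2.04 and 2.22 TPM in the controls and 2.31 and 2.99 after irradiation. Both irradiated libraries lay above both controls for Itpr1, while for Itpr2 the conditions overlapped on this scale. Itpr1 made up 21.3% ± 0.95 (SD, n = 2) of the IP3 receptor TPM in controls and 26.3% ± 1.99 (SD, n = 2) after irradiation, without overlap. With 2 libraries a condition, an exact permutation test cannot give a two-sided p below 0.333, so this shift was not tested. All listed rows of Itpr1 and Itpr2 are predicted models, 4 and 2 of them.

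On the normalized scale (CPM after TMM scaling), Itpr1 stood at 15.6 and 15.9 in controls and 16.8 and 16.4 after irradiation. Its log2 fold change was 0.076 (SE 0.128), with a 95% interval from -0.23 to 0.38. Itpr2 stood at 61.5 and 68.1 in controls and 56.2 and 47.1 after irradiation, lower in both irradiated libraries. Its log2 fold change of -0.33 (SE 0.151) did not pass the test (adjusted p = 0.708, edgeR quasi-likelihood test), and it was -0.20 without irradiated library 2. Itpr3 (17:27057002-27122223), with 21, 20, 23 and 35 counts in control 1, control 2, irradiated 1 and irradiated 2, was close to the floor of what these libraries resolve. Its log2 fold change was 0.34 with an interval from -0.43 to 1.11, and came to 0.18 without irradiated library 2 and 0.10 with an offset for GC content. A stretch of 233 bases of its exons overlaps the antisense gene Itpr3os, whose reads cannot be told apart because the strand setting of the counting is not given. The same limit holds for Cacna1h, which shares 158 exonic bases with Tpsg1 on the other strand. Itpr1, Atp2a2 and Orai1 also share exonic bases with other genes.

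The pumps clear the cytosol after each calcium rise. Atp2a2 (5:122453513-122502225), which refills the store, stood at 53.2 and 53.9 normalized CPM in controls and 54.2 and 46.1 after irradiation. The conditions overlapped, and the log2 fold change of -0.096 (SE 0.142) turned positive under scaling by library size, on the TPM scale and without irradiated library 2, and was -0.22 without irradiated library 1. Atp2b1 (10:98914630-99026143), which exports calcium, stood at 77.8 and 76.1 in controls and 70.2 and 51.0 after irradiation. Both irradiated libraries were below both controls, by a log2 fold change of -0.35 (SE 0.179, adjusted p = 0.708, edgeR quasi-likelihood test), which came to -0.13 when irradiated library 2 was left out and -0.59 when irradiated library 1 was. Irradiated library 2 thus carried most of the distance for both pumps.

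The Atp2a2 rows separate SERCA2b, the general form with an extended luminal tail, from SERCA2a, the form typical of heart and slow muscle. SERCA2b (NM_001110140.3) took 1727.5, 1643.48, 1685.39 and 1811.69 estimated counts in control 1, control 2, irradiated 1 and irradiated 2, or 93.8 to 96.2% of the gene. SERCA2a (NM_009722.3) took 100.5, 108.52, 109.61 and 72.31. The longer form led in every library, by more than 10-fold, and neither form passed the edgeR test, with log2 fold changes of -0.067 and -0.29 that both turned positive without irradiated library 2. The coding ends that tell the forms apart are printed from the minus strand of GRCm38, as read from GENCODE transcripts, in capitals after 30 shared coding bases. The SERCA2b end lies in an exon at chr5:122457154-122457302 and gives 149 bases, and the SERCA2a end lies in a separate downstream exon at chr5:122454294-122454304 and gives 11.
SERCA2b: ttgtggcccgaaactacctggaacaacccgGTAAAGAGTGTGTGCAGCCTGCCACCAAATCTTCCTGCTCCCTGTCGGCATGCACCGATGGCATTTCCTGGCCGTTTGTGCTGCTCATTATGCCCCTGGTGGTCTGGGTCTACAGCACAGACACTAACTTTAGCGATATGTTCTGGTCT
SERCA2a: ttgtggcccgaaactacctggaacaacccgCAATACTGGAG

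Of the influx channels of the plasma membrane, Trpm7 (2:126791558-126876261), a channel fused to a kinase, was lower in both irradiated libraries. It stood at 20.4 and 18.7 normalized CPM in controls and 14.6 and 15.3 after irradiation. The replicates of each condition lay closer to each other than to the other condition, with a log2 fold change of -0.38 (SE 0.132), an unadjusted p of 0.0236 and, in the edgeR fit, an adjusted p of 0.708. On the TPM scale its conditions overlapped, at 3.67 and 3.6 in controls against 2.77 and 3.83. Cacna1h (17:25374285-25436334), the T-type channel, was scarce, at 3.38 and 2.25 normalized CPM in controls and 3.02 and 3.40 after irradiation. Its conditions overlapped, and its log2 fold change of 0.19 (SE 0.251) turned to -0.11 with an offset for GC content and to -0.072 without control library 2, and was 0.52 without control library 1 and 0.10 without irradiated library 2.

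Trpm7 has 2 listed rows whose coding sequences differ by 3 bases at an exon junction. The form with the extra bases (NM_021450.2) took 578.31 and 299.41 estimated counts in controls and 384.71 and 498.89 after irradiation. The form without them (NM_001164325.1) took 121.69 and 308.59 in controls and 100.29 and 128.11 after irradiation. Control library 2 was the one that differed, with 50.8% of Trpm7 counts on the shorter form against 17.4 to 20.7% in the other 3 libraries, so the split of the gene did not follow the condition. The extra bases, in capitals, lie in coding exon at chr2:126805085-126805087, minus strand, and are flanked by 30 bases on each side. They are shown because reads crossing this junction are the only ones that separate the coding sequences of the 2 forms.
NM_021450.2: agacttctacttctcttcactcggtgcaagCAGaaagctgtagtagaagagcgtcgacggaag
NM_001164325.1: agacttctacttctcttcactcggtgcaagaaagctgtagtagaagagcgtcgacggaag

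In store-operated entry, Orai1 alone gave the largest positive difference of the group. Orai1 (5:123015074-123030452), the pore of this route, stood at 29.4 and 31.3 normalized CPM in controls and 35.2 and 47.5 after irradiation. Both irradiated libraries were above both controls, 1.37-fold on average (log2 0.45, SE 0.173, interval 0.039 to 0.86), with an unadjusted p of 0.0357 and, by edgeR, an adjusted p of 0.708. The value was 0.22 without irradiated library 2, 0.65 without irradiated library 1 and 0.18 with the GC offset. Its main row, NM_175423.3, took 725.09 and 743.16 counts in controls and 868.92 and 1485.01 after irradiation, and carried 71.7 to 76.4% of the gene in every library. Stim1 (7:102261514-102437319), the store sensor, stood at 2.50 and 2.74 normalized CPM in controls and 2.26 and 3.67 after irradiation. The irradiated libraries lay on either side of both controls, and the log2 fold change of 0.19 (SE 0.273) turned to -0.21 without irradiated library 2, and was 0.49 without irradiated library 1, 0.12 without control library 1 and 0.033 with the GC offset.

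Camk2g (14:20734873-20794157), the kinase that reads the oscillations, was level across the libraries. It stood at 45.8 and 47.4 normalized CPM in controls and 47.3 and 41.4 after irradiation. The conditions overlapped, with a log2 fold change of -0.072 (SE 0.137, interval -0.40 to 0.25) that turned positive under scaling by library size, on the TPM scale and without irradiated library 2, and was -0.17 without irradiated library 1 and -0.047 without control library 2. Camk2g had 20 of the 45 rows listed for the group, and its 5 most used rows carried 9.94 to 22.2% of its counts each. The leading row, NM_001039139.2, took 390.66, 319.43, 371.98 and 334.37 counts in control 1, control 2, irradiated 1 and irradiated 2. The row NM_001039138.2 took 217.86, 222.22, 255.95 and 249.07. These 2 known forms differ by a coding exon of 69 bases in the variable linker at chr14:20745792-20745860, minus strand, shown in capitals between 30 flanking bases, and the form without it was the more abundant in every library.
NM_001039138.2: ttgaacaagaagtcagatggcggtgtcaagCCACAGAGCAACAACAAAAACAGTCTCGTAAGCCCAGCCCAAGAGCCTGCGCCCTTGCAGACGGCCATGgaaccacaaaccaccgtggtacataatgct
NM_001039139.2: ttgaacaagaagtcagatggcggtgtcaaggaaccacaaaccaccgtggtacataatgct

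Across the group, no member passed the test after adjustment. A call in edgeR's test required a log2 fold change over 2 in size besides an adjusted p under 0.05. By that rule 0 of 10 members were called, against 0.00796% of the 12569 genes tested, and the smallest adjusted p of a member was 0.708. At an unadjusted p under 0.05 stood Orai1, higher, and Trpm7, lower, which is 2 of 10 members against 5.92% of all genes (4.63% higher and 1.29% lower). Without irradiated library 1, the log2 fold changes of Itpr2, Atp2b1, Trpm7 and Orai1 were -0.46, -0.59, -0.35 and 0.65. Without irradiated library 2 they were -0.20, -0.13, -0.415 and 0.22. Each of these fits had a single irradiated library. The 5 members with a positive and 5 with a negative log2 fold change had a median of 0.002, beside 0.010 for all genes. Scaling by library size alone moved the median of all genes to 0.17, log2(TPM + 1) to 0.14 and log2(TPM + 0.1) to 0.21. Values on those scales are thus shifted upward, by an amount that depends on the pseudocount and differs between genes. Itpr2, Atp2b1 and Trpm7 came to -0.092, -0.13 and -0.12 on log2(TPM + 1), from -0.33, -0.35 and -0.38 in the main fit. The conditions did not overlap in normalized CPM for 6 of 10 members (Itpr1, Itpr3 and Orai1 above, Itpr2, Atp2b1 and Trpm7 below), a share to be read beside 41.9% of all genes (22.1% above and 19.9% below).

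**Figure D2:**
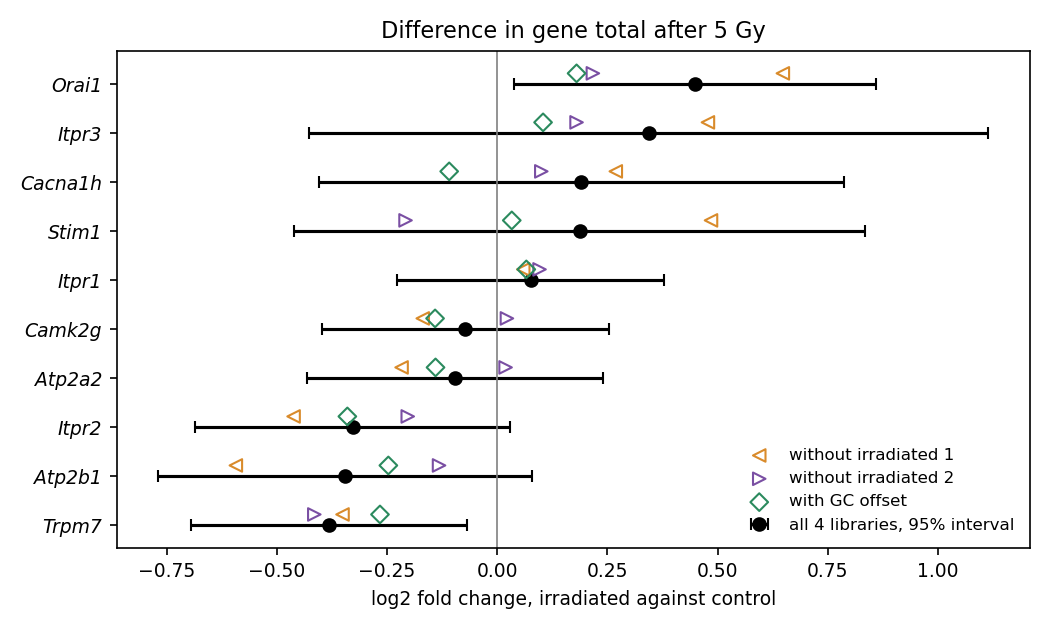
Log2 fold change of each gene total, irradiated against control. Black points are the edgeR fits to all 4 libraries with 95% intervals, and open symbols are the fits without irradiated library 1, without irradiated library 2 and with an offset for GC content. The intervals of Orai1 and Trpm7 alone leave out 0, and the fits without either irradiated library lie on opposite sides of 0 for Stim1, Atp2a2 and Camk2g.

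Differences between the conditions within the group ran with the GC content of the transcripts. GC content of the longest coding transcript ran from 40.1% for Trpm7 and 42.6% for Atp2b1 to 58.6% for Orai1 and 60.0% for Cacna1h. Across the 10 genes it correlated with the irradiated against control log2 fold change at r = 0.89 (Spearman's rho 0.89). The same correlation was 0.37 (rho 0.42) across 12050 genes, and genes share the 4 libraries, so neither value carries a test. In the control pair the correlation was -0.20 (rho 0.09) across the 10 genes and 0.02 (rho 0.01) across all genes. In the irradiated pair, library 2 against library 1, it was 0.59 (rho 0.64) and 0.15 (rho 0.15). With an offset that removes the trend of each library on GC content, an alternative chosen after the data were seen, Orai1 came to 0.18 (SE 0.139, unadjusted p = 0.238) and Trpm7 to -0.27 (unadjusted p = 0.0834) in the edgeR fit. Itpr2 stayed at -0.34, with the smallest unadjusted p of the group in that edgeR fit (0.0591). The correlation over the 10 genes was then 0.67. The offset thus raised the 2 smallest unadjusted p-values of the main fit, and the part of GC content in them was not tested further.

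**Figure D3:**
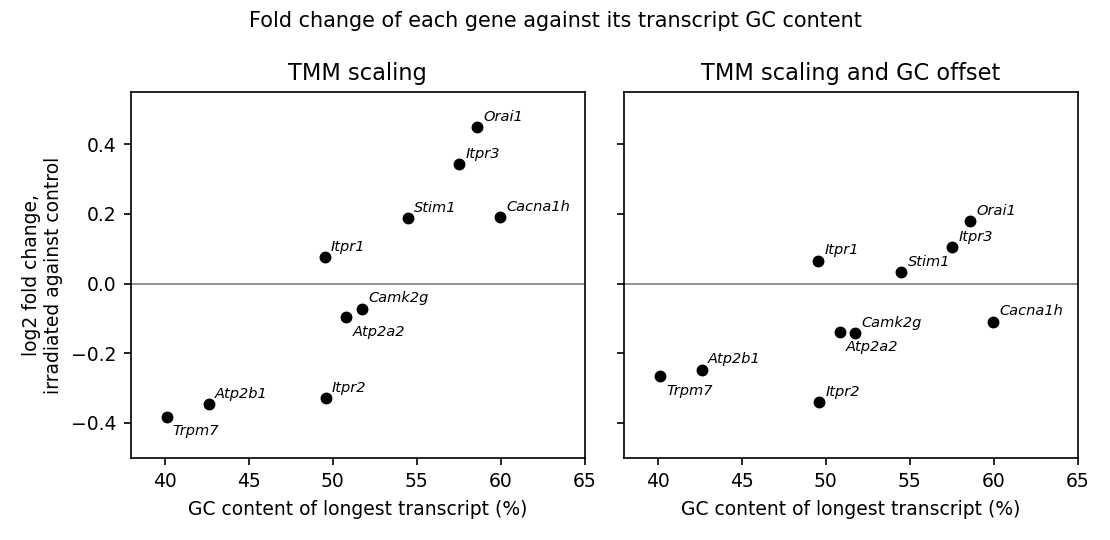
Log2 fold change, irradiated against control, of the 10 genes against the GC content (%) of the longest coding transcript, with TMM scaling (left) and with an added offset for GC content (right). Genes of higher GC content lie higher on the left, from Trpm7 at 40.1% to Orai1 at 58.6%, and the spread from bottom to top is smaller on the right.

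Counts of single transcripts moved more than the gene totals, and Stim1 moved most. Its predicted row XM_017322078.1 took 56.76 and 82.83 estimated counts in the controls and 0 in both irradiated libraries, while XM_006507535.4 took 0 in both controls and 52.97 and 119.89 after irradiation. With the empty libraries set to a floor of 3 counts, the first was 25.7-fold lower and the second 25.2-fold higher in mean normalized CPM. These ratios carry no error of counting or of sharing reads between rows. Summed, the pair made up 66.0, 93.1, 70.6 and 79.9% of Stim1 in control 1, control 2, irradiated 1 and irradiated 2, so the gene's share on them did not separate the conditions. Neither row passed edgeR's quasi-likelihood test (adjusted p = 0.777 for both), where 0 of 26645 transcripts did, beside 1306 (4.9%) at an unadjusted p under 0.05. DESeq2 called both (adjusted p = 0.00166 and 0.00157), among 248 of 28757 transcripts (0.862%). On simulated transcripts DESeq2 made 47 false calls and recovered 81% of the changed ones, against 0 and 70% for edgeR. The simulated transcripts shared no reads and were drawn with the dispersion that edgeR had fitted, so they cannot decide which test holds for these rows. In that simulation edgeR's test of transcript usage recovered 25.3% of the changed genes. In the test of transcript usage within a gene, edgeR's diffSpliceDGE gave Stim1 an adjusted p of 0.0898 by Simes' method, where 0.253% of 6323 genes passed and 6.12% had an unadjusted p under 0.05, and 0.0345 by its F test, where 0.917% passed. The adjusted p of Stim1 was 0.61 with limma, 0.38 without the low-count filter, 0.863 with a replicate block and 0.288 to 0.455 when a library was left out. The known row NM_009287.5 took 29.24 and 6.17 counts in controls and 22.03 and 26.59 after irradiation.

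Rows that filled both libraries of 1 condition and stayed at or under 3 counts in the other made up 3.83% of all 45505 listed transcripts, and 2 of the 45 rows of the group, the Stim1 pair. Single libraries did the same. Cacna1h counts lay on NM_001163691.1 in control 1, control 2 and irradiated 1 (73.0 to 103.85) and on NM_021415.4 in irradiated 2 (134.86), with 0 on each in the other case. For Itpr1, XM_006505636.1 took 475.12 and 226.15 counts in controls and 213.04 and 246.97 after irradiation, and XM_006505637.1 took 60.88 and 164.37 in controls and 343.96 and 355.70 after irradiation. The second was higher in both irradiated libraries, but its log2 fold change of 1.5 (SE 0.577) did not pass (adjusted p = 1, edgeR quasi-likelihood test) and was 0.93 without control library 1 and 2.45 without control library 2. The Camk2g row XM_006518492.3 was lower in both irradiated libraries, at 94.44 and 126.81 counts against 183.56 and 236.96, with a log2 fold change of -1.07 (SE 0.267, adjusted p = 0.777, edgeR quasi-likelihood test). These splits were estimated by the counting program from shared reads, and the common dispersion was 0.473 for transcripts against 0.0251 for gene totals.

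**Figure D4:**
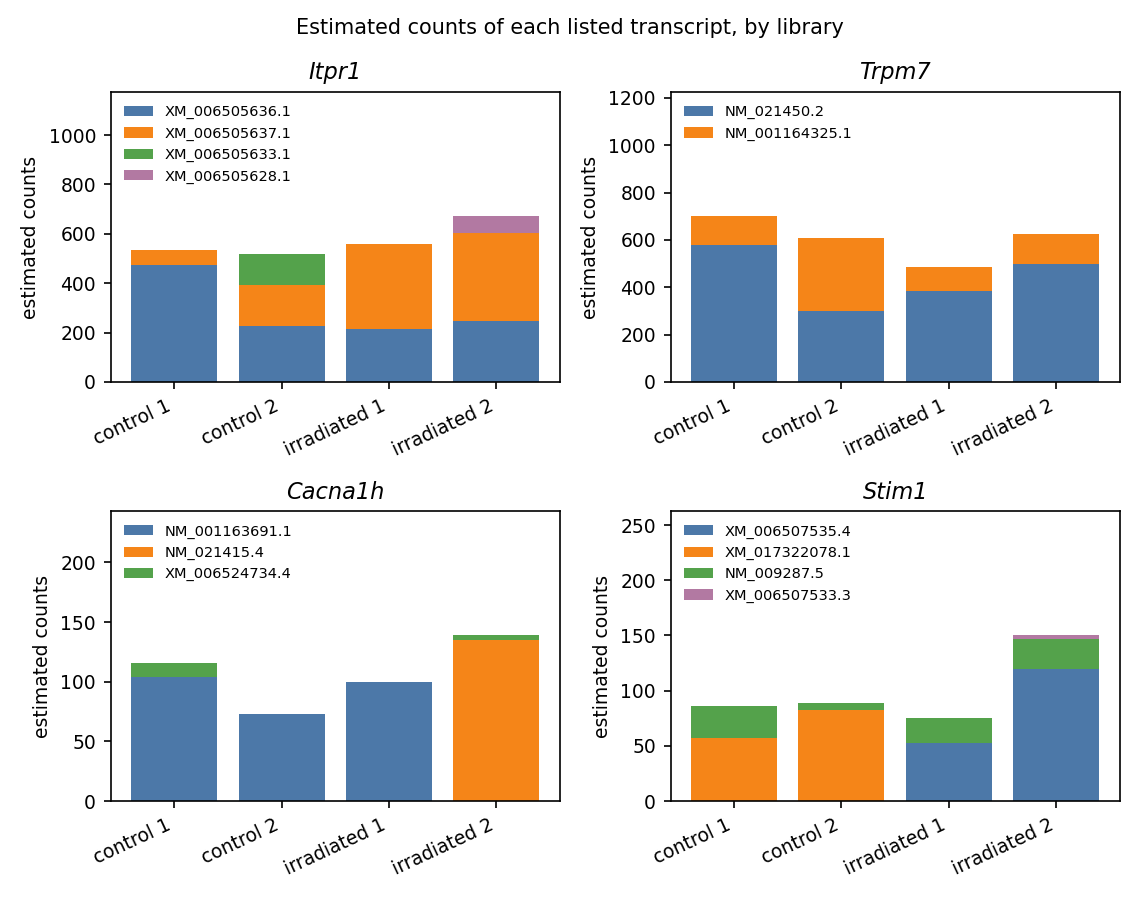
Estimated counts of every listed transcript of Itpr1, Trpm7, Cacna1h and Stim1, stacked, in each of the 4 libraries. The 4 genes were picked after their values were seen, for showing the splits described. The Stim1 counts lie on one predicted row in both controls and on the other in both irradiated libraries, and the Cacna1h counts change row in irradiated library 2 alone.

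In the wider calcium pathway no gene passed the test either. Of 102 further genes in 6 lists, 94 were listed, 68 were tested and 0 were called in edgeR's test. Only 1 of all 12569 genes (0.00796%) was called, so a count of 0 does not set the pathway apart. At an unadjusted p under 0.05 stood 1 of the 68, beside 5.92% of all genes. It was Nucb1, a calcium-binding protein of the Golgi, with a log2 fold change of 0.37 (SE 0.139) and an adjusted p of 0.708 in the edgeR test. Without irradiated library 1 this count was 24, when 42.2% of all genes stood under that p. Camkk2, a kinase upstream of CaM kinases, had a log2 fold change of 1.08 (unadjusted p = 0.0697, edgeR), from 0.29 and 0.25 normalized CPM in controls and 0.36 and 0.76 after irradiation. Micu3, a regulator of the mitochondrial uniporter, had one of 0.67, from 3.70 and 3.94 in controls and 3.96 and 8.17 after irradiation. Irradiated library 2 set most of both differences. Stimate, a partner of STIM1, stood at 0.39 and Pdia3, a disulfide isomerase of the store, at -0.29. The median log2 fold change was -0.023 over the 68 genes, with 29 above and 39 below 0. Over all genes tested the median was 0.010, with 51.4% above 0. By list the median was -0.023 for IP3 production and store release (0 of 9 tested genes called), -0.077 for pumps and exchangers (0 of 6), -0.061 for plasma membrane channels (0 of 11), 0.023 for luminal calcium-binding proteins (0 of 14), 0.067 for mitochondrial uptake (0 of 12) and 0.054 for sensors and effectors (0 of 16). The most abundant gene of each list was Plce1 at 21.6 TPM, Atp2c1 at 47.4, Saraf at 70.5, Tmbim6 at 199, Vdac3 at 660 and the calmodulin gene Calm2 at 2256. Plcz1, the sperm phospholipase that starts the response, was not listed.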

How the data were processed

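RNA-seq was analysed in 4 libraries, 2 control and 2 irradiated, grouped by the treatment in the labels. Submitters' processing notes name HISAT2, Bowtie2 and RSEM without roles or versions and the mm10 build. The authors deposited an estimated count and a TPM value for each RefSeq transcript in each library. The 4 deposited FPKM columns and 6 columns of averages were not used. Estimated counts were not scaled for depth and had been shared among the transcripts of a gene before deposit. They were summed per gene (or kept per transcript), rounded to whole numbers and fitted with the quasi-likelihood functions of edgeR 4.0.16 (R 4.3.3), using TMM factors, genes kept by filterByExpr at a minimum of 10 counts, and Benjamini-Hochberg adjustment over all features. The TMM factors were 0.923, 0.975, 0.937 and 1.19. Transcript usage was tested with diffSpliceDGE. limma 3.58.1, DESeq2 1.42.0, other scalings and filters, TPM with pseudocounts of 1 and 0.1, a replicate block and leaving out each library were tried as alternatives, and a loess offset on GC content was added after the data were seen (95.9% of tested genes had a value).

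Symbols and gene coordinates came from RefSeq on GRCm38.p6 (17323 of 17374 gene IDs matched), and exon sequences and GC content from GENCODE M21 on GRCm38. The members and lists were chosen with earlier results of these data known. Named were all members, their transcripts with at least 10% of a gene's counts or its smallest p, the most abundant gene of each pathway list, the 5 pathway genes with the smallest p and the 3 genes nearest to Orai1. Replicates are separate libraries of 2 experiments according to the methods, and the labels do not say that equal numbers share an experiment. Intervals carry the spread between these libraries alone. The fits were first tested on simulated data.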

Additional observations from a re-analysis of the deposited data

How the results depend on the processing

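No member was called under any of the 14 alternatives, a call needing a log2 fold change over 2 in size as well. Member values ran from -0.593 (Atp2b1) to 0.648 (Orai1) over the alternatives. The size limit thus left no room for a call, and the absence of calls says nothing of the adjusted p alone. Directions held for Itpr1, Itpr2, Itpr3, Atp2b1, Trpm7 and Orai1 under all 14. Atp2a2 came to 0.052 by library size alone, 0.117, 0.123 and 0.117 on log2(TPM + 1), log2(TPM + 0.1) and unfiltered log2(TPM + 1), and 0.019 without irradiated replicate 2, and Camk2g to 0.078, 0.146, 0.153, 0.146 and 0.022. Leaving out 1 library gave -0.217 to 0.019 for Atp2a2, -0.169 to 0.022 for Camk2g, -0.072 to 0.515 for Cacna1h and -0.208 to 0.485 for Stim1. Cacna1h came to -0.109 with the GC offset and -0.072 without control replicate 2, and Stim1 to -0.208 without irradiated replicate 2. Genes called numbered 1, and 4 with DESeq2, 3 without a low-count filter, 0 by library size alone, limma-voom, the 3 TPM settings or the GC offset, and 16 to 51 when a library was left out. Without irradiated replicate 1, Itpr2, Atp2b1, Trpm7 and Orai1 came to -0.462, -0.593, -0.351 and 0.648. That fit took the remaining irradiated library to vary as the controls do. DESeq2 called 248 transcripts where edgeR called 0. Usage calls numbered 16, and 0 with limma, 58 by the F test, 8 without a filter and 2 to 30 when a library was left out. Pathway genes at an unadjusted p under 0.05 numbered 1, and 0 by library size or filtered TPM, 3 without a filter and 1 to 24 when a library was left out. Leaving out 1 library gave transcript values of -0.083 to 0.236 for Camk2g NM_001039138.2, -0.345 to 0.090 for NM_001039139.2, -0.156 to 0.019 for Atp2a2 NM_001110140.3, -0.799 to 0.090 for NM_009722.3, -9.556 to 0.202 for Cacna1h NM_001163691.1, -0.323 to 1.838 for Stim1 NM_009287.5 and -0.472 to 0.388 for Trpm7 NM_021450.2. Library size alone turned NM_001039139.2 to 0.010, NM_001110140.3 to 0.067 and NM_021450.2 to 0.050. By counts the Itpr1 share of IP3 receptor transcripts was 19.4% in controls and 24.2% after irradiation, and it could not be computed from known rows. The causes of these changes were not tested.

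With the replicate number as a block, 7 genes were called in gene totals, usage calls fell to 3 and pathway genes at an unadjusted p under 0.05 numbered 3, and no member was called (Orai1 0.43, adjusted p = 0.406 in edgeR). The labels do not pair the libraries, and same-numbered libraries correlated at 0.098 in their deviations.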

Other observations

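The genes whose level and pattern over the 4 libraries lay nearest to Orai1 were Snai3, Fzr1 and Kctd5, at root-mean-square differences of 0.030, 0.053 and 0.062 in log2 CPM. Snai3 stood at 29.4 and 31.5 normalized CPM in controls and 36.7 and 47.8 after irradiation, and Fzr1 at 29.3 and 31.0 against 36.8 and 44.8. The likeness is a description over 4 libraries and has no test.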
